A study of Mus musculus with 288 samples.

Results

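Aminoacyl tRNA synthetases are the enzymes that join each amino acid to its transfer RNA. The genes for them were followed in 12 mouse tissues over 2 days of constant darkness. They were taken by name from the array annotation, as every gene whose symbol is a single letter followed by "ars", with or without a closing 1 or 2, together with Eprs. This gave 32 genes of 19938 measured. By the symbol, 16 are cytosolic and 16, whose names end in 2, are mitochondrial. Aars shares its probe set with Exosc6 and was not counted, and Farsa, Farsb and Tarsl2 lie outside the naming rule.

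The tissues were liver, kidney, lung, brown and white adipose, heart, aorta, skeletal muscle, adrenal gland, and from the brain cerebellum, hypothalamus and brainstem. In each, the marker genes of its own cells had a higher median level than in any tissue not listed as holding those cells. These medians ran from log2 9.97 to 13.51 for 19 lists. The gap was small in fat, with brown adipocyte markers at 11.11 in brown adipose and up to 10.56 elsewhere. Adipocyte markers were at 12.19 in brown and 12.35 in white adipose, and up to 11.73 elsewhere. Hepatocyte and muscle fibre markers also reached medians of 9.61 in adrenal gland and 9.86 in brown adipose. All animals were C57/BL6 mice with no genetic change or drug named in the labels; age and sex are not given there. They had lived for 1 week under 12 h of light and 12 h of dark before the lights stayed off, and each of the 288 arrays held RNA pooled from 3 mice. Every tissue has 1 array for each 2 h from circadian time (CT) 18 to CT64, 24 arrays in all and no replicate, so p-values measure the scatter of pools about a fitted daily wave. In pooled tissue RNA, fewer cells of a type and less RNA per cell cannot be told apart.

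Each enzyme recognises 1 amino acid and its transfer RNAs, and a cell needs the full set in the cytosol and another in mitochondria, which translate their own genome. Most mitochondrial enzymes have nuclear genes of their own, but a single gene, Gars or Kars, serves both places for glycine and lysine, and mitochondria charge glutamine by a detour through Ears2 and the amidotransferase of Gatb, Gatc and Qrsl1. When amino acids run short, uncharged transfer RNA activates the kinase Gcn2 (gene Eif2ak4), and the factor ATF4 then switches on amino acid transporters, amino acid synthesis and a large share of the cytosolic synthetase genes.

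The sequence that ATF4 and its partners bind, an amino acid response element, holds the core letters TGATGNAA. A search of both strands in windows from 250 bases before to 50 bases after the annotated start (RefSeq, GRCm38.p6), available for 23 of the 32 genes, found the core in 4 genes, Tars, Gars, Iars and Yars. They are shown because Tars and Yars carried the largest waves in liver and kidney. All 4 are cytosolic genes. Each stretch is written on the gene's own strand with the core in capitals. In Yars the core reads as spelled above, and in Tars, Gars and Iars it lies on the opposite strand, so that its reverse complement is seen. Each stretch starts 60 bases before the start site and ends there or at the end of the core.

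Tars (chr15:11399659-11399718, minus strand): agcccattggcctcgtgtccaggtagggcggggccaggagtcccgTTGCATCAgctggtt

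Gars (chr6:55037941-55038000, plus strand): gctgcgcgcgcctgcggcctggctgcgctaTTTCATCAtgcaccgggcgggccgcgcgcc

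Iars (chr13:49682070-49682144, plus strand): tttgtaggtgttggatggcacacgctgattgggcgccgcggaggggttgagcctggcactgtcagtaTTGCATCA

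Yars (chr4:129189843-129189913, plus strand): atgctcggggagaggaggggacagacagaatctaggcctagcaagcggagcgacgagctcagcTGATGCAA

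The core began 15 bases before the start in Tars and 30 bases before it in Gars, and 7 and 3 bases after it in Iars and Yars. Of all genes with a window, 4.51% held it, and of all windows 3.97%. The E-box CACGTG, bound by the clock activators, was found in Tars, Iars and Ears2, against 8.09% of all genes. The D-box core TTATGNAA was found in Vars2, against 3.99%, and the ROR core TAGGTCA in none, against 2.97%. The core of the NRF1 site, GCATGCGC, was found in the mitochondrial genes Rars2, Vars2 and Wars2, against 3.05% of all genes. These matches describe letters in a window and do not show binding.

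A gene was called rhythmic in a tissue when the limma moderated F test of its 24 h wave had an adjusted p under 0.05 over all 19938 genes. Over the 32 genes and 12 tissues, 49 such waves were called, 27 of cytosolic and 22 of mitochondrial genes, and 25 genes had at least 1. That is 12.8% of the 384 pairs of gene and tissue, near the 10.98% over all genes, with 14.1% for cytosolic and 11.5% for mitochondrial genes. They were concentrated in liver (16 of 32 genes), kidney (11) and lung (7), where 26.8%, 25.8% and 20.9% of all genes were called. Weakly expressed genes lower these shares. Of genes with a mean log2 of at least 6 in liver, 5461 of 13372 were called, with p adjusted over those alone. In kidney these were 5280 of 13257 and in lung 4426 of 12910. Pars2 alone of the 32 synthetase genes had a mean under 6 in any tissue. Shares of all genes given below include the weakly expressed genes too. The median peak-to-trough fold of the 49 waves was 1.17, and 1 of them, that of Tars in liver, exceeded 1.5. In liver the median of the called synthetase genes was 1.23, as it was over all called genes. It was 1.12 in kidney and 1.14 in lung, against 1.16 over all called genes in each.

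**Figure D1:**
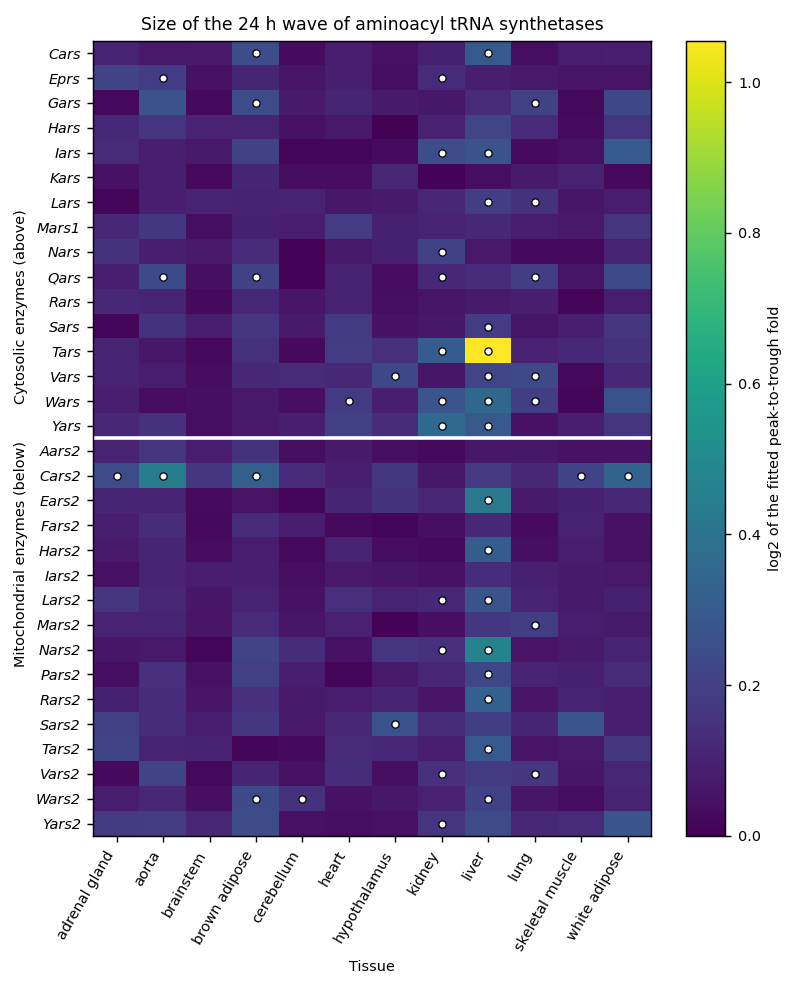
Colour gives the log2 of the fitted peak-to-trough fold of each of the 32 genes (rows; cytosolic above the white line, mitochondrial below) in each of 12 tissues (columns), and white dots mark the 49 called waves. Tars in liver stands out at 2.08-fold, liver and kidney hold most of the dots, and brainstem has none.

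In liver, 8 cytosolic and 8 mitochondrial genes were called, and the median fold over all 32 genes was 1.15, against 1.09 over all genes measured. The peaks gathered in the subjective night and the first hours of the subjective day. Of the 16, 10 peaked between CT18 and CT24, 5 between CT0 and CT6, and Wars at CT17.9. For 13 of the 16, the clock hour with the lowest mean of the 2 days was CT10.

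The array of liver at CT34, the first of the 2 days at that hour, correlated less with the other liver arrays (median r 0.979, against a typical 0.996). It held the lowest liver value for 23 of the 32 synthetase genes and for 25.2% of all genes. Without it, 18 of the 32 were called in liver. Pars2 was then no longer called, and Hars, Qars and Yars2 were added. Hepatocyte markers had their highest level in liver, at a median log2 of 13.51, and the list of other cell types that varied most there, that of lung epithelium, stayed between 6.04 and 6.71.

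Tars, which charges threonine, had the widest daily swing in the family. Its liver intensity was 615 at the lowest, 1198 at the median and 1698 at the highest of 24 arrays. At clock hour CT0 it was 1698 on the first day and 1491 on the second, and at CT10 it was 615 and 745. These are the clock hours with the highest and lowest mean of the 2 days, and both days' values at CT0 lay above both at CT10. The fitted fold was 2.08 (95% interval 1.86 to 2.32), with a peak at CT22.7 ± 0.28 h (standard error) and an adjusted p of 1.3e-09 by limma. In size it ranked 152nd of all 19938 liver genes. Without the CT34 array the fold was 1.97 (1.80 to 2.16).

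The mitochondrial threonine enzyme, Tars2, kept the same time in liver with a smaller swing. Its fold was 1.23 (1.15 to 1.31), with the peak at CT22.7 ± 0.59 h and an adjusted p of 8.5e-05. At clock hour CT22, its highest, it read 536 and 535 on the 2 days, and at CT10, its lowest, 382 and 408. For this gene and those below, hours set against each other were likewise picked as the highest and lowest, which favours a gap between them. Across the 24 liver arrays, Tars and Tars2 correlated with r = 0.94. The values of both genes at a time point come from the same array and pool, and both were lowest on the CT34 array.

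**Figure D2:**
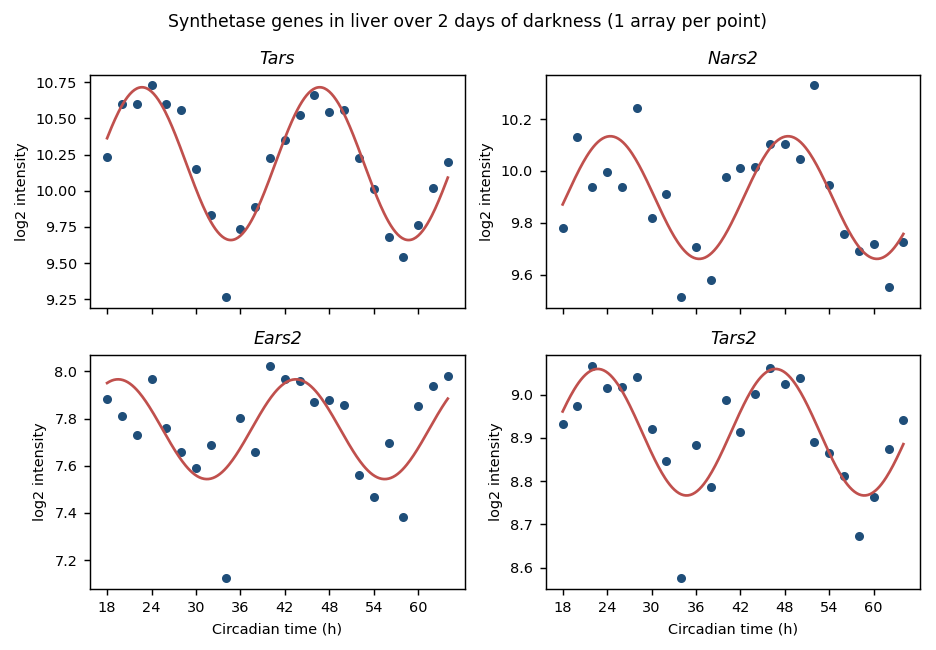
Log2 intensity of Tars, Nars2, Ears2 and Tars2 in liver (vertical axis) by circadian time in hours (horizontal axis); each point is 1 array and the line is the fitted 24 h wave. Tars and Tars2 trace the same course with a peak at CT22.7 on a different scale, and the CT34 array is the lowest point in all 4 panels.

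Nars2 and Ears2, which charge asparagine and glutamate in mitochondria, were the next widest in liver. Nars2 ranged from 730 through a median of 981 to 1288, with 1214 and 1288 at CT4 and 764 and 750 at CT14. Its fold was 1.39 (1.24 to 1.55), its peak CT0.43 ± 0.62 h and its adjusted p 0.00015. Ears2 read 260 and 253 at CT16 and 140 and 167 at CT10, with a fold of 1.34 (1.18 to 1.52) and a peak at CT19.5. The other called mitochondrial genes were Rars2 (1.25-fold, CT20.8), Hars2 (1.24-fold, CT22.9), Lars2 (1.20-fold, CT23.1), Pars2 (1.17-fold, CT21.0) and Wars2 (1.15-fold, CT4.1).

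Among cytosolic enzymes of liver, Wars, which charges tryptophan, followed Tars. Wars ranged from 393 through a median of 519 to 637, with 637 and 587 at CT16 against 394 and 413 at CT10. The fold was 1.28 (1.14 to 1.43), with an adjusted p of 0.0045. Yars, the tyrosine enzyme, ranged from 502 through 681 to 778 and had a fold of 1.23 (1.13 to 1.33) with a peak at CT20.5. Cars, Iars, Vars, Lars and Sars, the enzymes for cysteine, isoleucine, valine, leucine and serine, had folds between 1.13 and 1.23.

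In kidney, 7 cytosolic and 4 mitochondrial genes were called, and the median fold over the 32 was 1.07, against 1.08 over all genes. A tight cluster of genes peaked late in the subjective night. Yars, Wars, Nars, Iars, Yars2 and Nars2 all peaked between CT19.1 and CT20.1, Tars at CT21.5, Eprs at CT22.5 and Lars2 at CT23.1. Qars and Vars2 peaked instead at CT8.9 and CT8.0. The marker list of other cells that varied most in kidney, that of adipocytes, ranged from 8.33 to 9.37. With that list in the fit Nars2 and Vars2 lost their calls, with adjusted p of 0.11 and 0.065. The array at CT54, which had raised pancreatic markers (7.04 against a median of 5.82), was needed for the call of Vars2, whose adjusted p without it was 0.082.

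Yars was the widest in kidney, from 274 through a median of 350 to 433. It read 408 and 433 at CT18 and 274 and 331 at CT8, with both days higher at the first hour. The fold was 1.29 (1.20 to 1.38), the peak CT19.6 ± 0.52 h and the adjusted p 1.2e-05. Tars in kidney ranged from 180 through 209 to 251, with a fold of 1.24 (1.15 to 1.33). Wars ranged from 461 through 515 to 575, with a fold of 1.21 (1.16 to 1.27), and had the smallest adjusted p of the family there, 1.3e-06. Nars, the asparagine enzyme, read 1674 and 1584 at CT20 and 1360 and 1319 at CT4, a fold of 1.16.

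**Figure D3:**
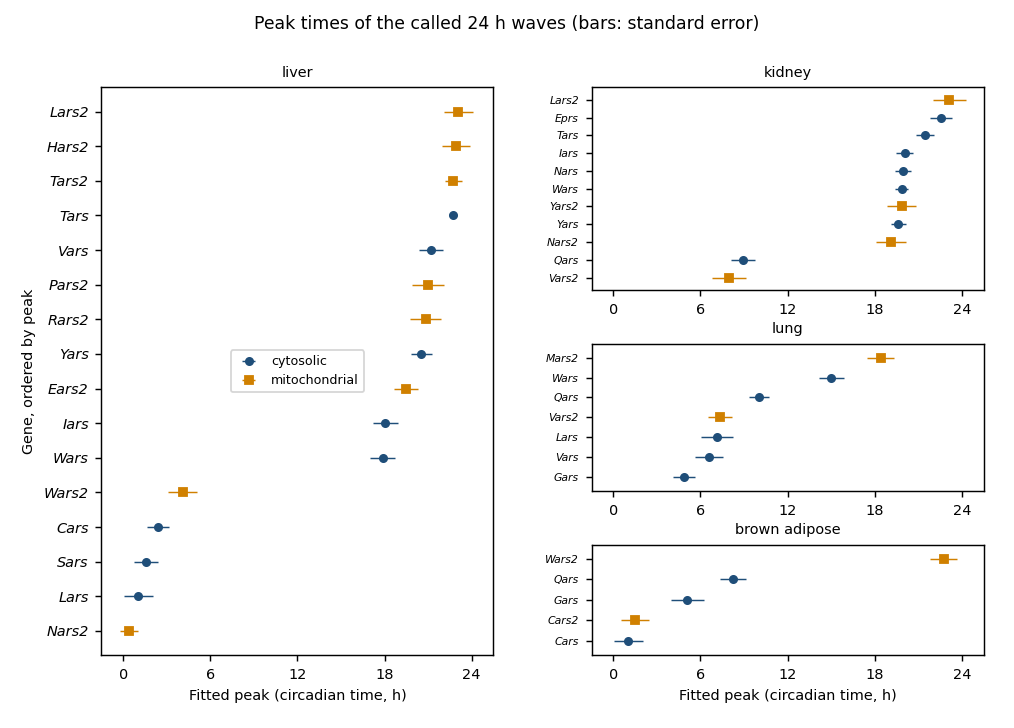
Fitted peak (horizontal axis, circadian time in hours, with standard error) of each called gene (vertical axis, ordered by peak) in liver, kidney, lung and brown adipose; circles are cytosolic and squares mitochondrial enzymes. In kidney 9 of 11 genes peak between CT18 and CT24, and in lung 4 of 7 peak between CT6 and CT12.

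In lung, 5 cytosolic and 2 mitochondrial genes were called, and the median fold over the 32 was 1.06, against 1.07 over all genes. Peaks lay mostly in the subjective day, with Gars at CT4.9, Vars at CT6.6, Lars at CT7.2, Vars2 at CT7.3 and Qars at CT10.1. Wars peaked at CT15.0 and Mars2 at CT18.4. Gars, the glycine enzyme, ranged from 539 through 630 to 720, with 720 and 673 at CT4 against 601 and 539 at CT22. Its fold was 1.15 (1.09 to 1.22) with an adjusted p of 0.0017. Wars in lung ranged from 1029 through 1168 to 1372, a fold of 1.15 (1.08 to 1.22). All 7 lung calls held under the 8 alternative settings. No lung array met the rule for standing apart, so leaving such arrays out repeated the main fit.

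Vars was called in 3 tissues, with like peak times in lung and hypothalamus and another in liver. In lung it ranged from 297 through 344 to 454 and peaked at CT6.6 ± 0.98 h with a fold of 1.18 (1.08 to 1.28). In hypothalamus it ranged from 217 through 284 to 310 and peaked at CT6.3 with a fold of 1.17 (1.09 to 1.26). In liver it ranged from 346 through 422 to 472 and peaked at CT21.2 ± 0.84 h with a fold of 1.17 (1.09 to 1.25). The difference of its wave over the 12 tissues had an adjusted p of 0.00015 (limma interaction test).

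In brown adipose, 5 genes were called (3 cytosolic and 2 mitochondrial), where 16.5% of all genes were called. Cars2, the mitochondrial cysteine enzyme, and Cars both peaked early in the subjective day, at CT1.5 and CT1.0, with folds of 1.25 (1.11 to 1.40) and 1.19 (1.08 to 1.30). Gars ranged from 701 through 888 to 1101 and peaked at CT5.1 with a fold of 1.19. Cars ranged from 168 through 211 to 241. Markers of skeletal muscle fibres varied widely in these arrays, from 6.58 to 11.67 over 12 genes, and with them in the fit Cars2 alone kept its call, with a fold of 1.36 and an adjusted p of 0.0041. Across the arrays 5 of the 32 genes correlated with that list at an absolute r over 0.5, among them Rars and Nars with r of 0.67 and 0.63. None of those 5 was called. Of the called genes, Wars2 had an r of 0.499 with the list, Cars 0.46, Qars -0.40, Gars -0.12 and Cars2 0.05.

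The other tissues had few calls. There were 3 in aorta (2 cytosolic, 1 mitochondrial; 5.09% of all genes), 2 in hypothalamus (1 and 1; 1.8%), and 1 each in adrenal gland (5.89%), cerebellum (5.49%), heart (8.64%), skeletal muscle (5.12%) and white adipose (4.85%). In brainstem limma called 0 of 32 genes (4.78% of all genes), with 5 at an unadjusted p under 0.05. The call in heart was Wars, 618 through 691 to 794, with a fold of 1.13 and a peak at CT17.7. The call in cerebellum was Wars2, the mitochondrial tryptophan enzyme, 174 through 199 to 228, with a fold of 1.11 and a peak at CT19.2. The second call in hypothalamus was Sars2, 116 through 164 to 188, with a fold of 1.20 and a peak at CT7.1; the CT18 array, which correlated less with the others (median r 0.991 against 0.998), held its lowest value and that of Vars. Both hypothalamic calls held without that array and the one at CT36, with folds of 1.15 for Sars2 and 1.13 for Vars. Both were lost on ranks, with a straight line in time and with hepatocyte markers in the fit, at adjusted p from 0.059 to 0.084. The hepatocyte list stayed between 6.25 and 6.61 in hypothalamus, against a median of 13.51 in liver. The rank fit called 0 of all 19938 genes in hypothalamus, so its loss says little about these 2.

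Cars2 was called in 5 tissues and Wars and Qars in 4 each. Under all 8 alternatives Cars2 kept its call in adrenal gland alone, Wars in kidney, liver and lung, and Qars in kidney and lung. The tissues of Cars2 were aorta, brown adipose, adrenal gland, skeletal muscle and white adipose. In aorta Cars2 ranged from 199 through 254 to 330, with 284 and 330 at CT0 and 203 and 200 at CT10. Its fold there was 1.36 (1.22 to 1.52), with a peak at CT0.66 ± 0.67 h and an adjusted p of 0.0023. In brown adipose it ranged from 251 through 278 to 390, in white adipose from 177 through 223 to 278, in skeletal muscle from 235 through 265 to 296 and in adrenal gland from 165 through 187 to 224.

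The peaks of Cars2 in the other tissues fell near the turn from subjective night to day, at CT22.7 in adrenal gland, CT1.8 in skeletal muscle and CT20.9 in white adipose, with folds of 1.18, 1.16 and 1.26. In hypothalamus, brainstem and cerebellum, where the wave was not called, the fitted peaks were CT20.9, CT22.3 and CT22.8, with adjusted p of 0.066, 0.11 and 0.11. Among the other tissues without a call, the fitted peak was earlier in heart (CT18.8, 1.06-fold) and liver (CT18.9, 1.13-fold). It was CT22.7 in lung and CT1.9 in kidney. On ranks the calls in aorta, brown adipose, skeletal muscle and white adipose were lost, with adjusted p from 0.059 to 0.11, and the call in skeletal muscle was lost with adipocyte markers in the fit too. Of all 19938 genes the rank fit called 149 in aorta, 273 in white adipose and 0 in skeletal muscle. In white adipose, leaving out the 6 arrays that stood apart (CT22, CT26, CT32, CT40, CT58 and CT64) gave a fold of 1.25 and an adjusted p of 0.051. Hepatocyte markers ranged from 6.76 to 12.37 in adrenal gland, and with them in the fit Cars2 had a fold of 1.18 and an adjusted p of 0.017.

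Qars, which charges glutamine in the cytosol and sits in the large complex of synthetases, was called in 4 tissues and peaked late in the subjective day in each. The peaks were CT8.2 in brown adipose, CT8.9 in aorta, CT8.9 in kidney and CT10.1 in lung. It ranged from 1028 through 1081 to 1177 in kidney, from 704 through 812 to 905 in lung, from 540 through 650 to 736 in aorta and from 630 through 722 to 839 in brown adipose. The folds were 1.09 (1.05 to 1.12) in kidney, 1.14 (1.09 to 1.20) in lung, 1.18 in aorta and 1.15 in brown adipose. The adjusted p was 0.0029 in kidney, 0.00067 in lung, 0.044 in aorta and 0.011 in brown adipose. The kidney and lung calls held under all 8 alternatives. The aorta call was lost without the CT24 array, with an adjusted p of 0.052, and with muscle markers in the fit, with 0.088, as well as on ranks and with a straight line. The brown adipose call was lost with muscle markers in the fit, with 0.062.

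**Figure D4:**
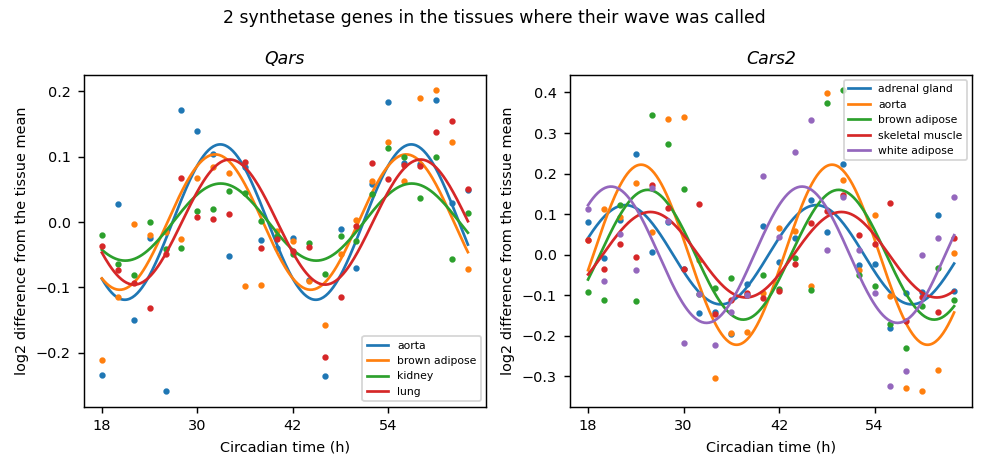
Log2 difference from the tissue mean (vertical axis) by circadian time in hours (horizontal axis) for Qars in its 4 and Cars2 in its 5 called tissues; points are arrays and lines fitted waves, 1 colour per tissue. The Qars waves peak between CT8.2 and CT10.1, and the Cars2 waves between CT20.9 and CT1.8.

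Wars2 was called in brown adipose as well, where it ranged from 168 through 189 to 220 and peaked at CT22.8, and in liver, where it ranged from 168 through 204 to 232. Eprs, which charges both glutamate and proline, was called in aorta (1.14-fold, CT7.6) and kidney (1.10-fold, CT22.5), and Mars2 in lung alone among the called waves. The aorta call of Eprs was lost on ranks and with muscle markers in the fit, at adjusted p up to 0.11 by limma. Its kidney call held under all 8 alternatives. Mars1, Hars, Kars, Rars, Iars2, Aars2 and Fars2 were called in no tissue. Their largest folds over the 12 tissues ran from 1.08 for Kars to 1.17 for Hars, whose adjusted p in liver was 0.052.

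The interaction test asks whether a wave itself differs between tissues. It called 21 of the 32 genes over the 12 tissues (12 cytosolic and 9 mitochondrial), against 49.6% of all genes. The smallest adjusted p belonged to Tars (1.8e-17), Yars (7.9e-08), Cars2 (4.9e-07) and Gars (2.7e-06). Wars, called in 4 tissues, had an adjusted p of 0.68. The fit takes the same residual variance for all tissues, and Wars had an SD of 0.63 in white adipose. That p therefore does not show that its wave was alike across tissues. Mars1 and Hars, called in no single tissue, had 0.00056 and 0.013.

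Between liver and kidney, 10 of 32 waves differed (3 cytosolic and 7 mitochondrial; 15.6% of all genes). They were those of Tars (adjusted p 3.2e-08), Nars2, Rars2, Ears2, Tars2, Vars2, Cars, Hars2, Vars and Pars2. The fold of Tars was 2.08 in liver and 1.24 in kidney. Without the arrays that stood apart, which include liver CT34 and kidney CT54, 5 differed, namely Tars, Nars2, Cars, Rars2 and Ears2. Between liver and brown adipose, 15 of 32 differed (4 cytosolic and 11 mitochondrial; 24.6%). Tars led with an adjusted p of 2.9e-13 and a fold of 1.10 (95% upper limit 1.23) in brown adipose, against 2.08 in liver. Cars2 had a fold of 1.13 and a peak at CT18.9 in liver, against 1.25 and CT1.5 in brown adipose (adjusted p 0.00027). Gars had 1.09 and CT22.3 in liver, against 1.19 and CT5.1 in brown adipose (0.0025).

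Between kidney and lung, 2 of 32 waves differed (5.59% of all genes), those of Yars and Nars. Yars had a fold of 1.29 in kidney and 1.04 (upper limit 1.10) in lung, with an adjusted p of 0.00027 for the difference. Nars had 1.16 in kidney and 1.01 (upper limit 1.06) in lung, with 0.032. Without the arrays that stood apart, Iars and Tars were called too.

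For 12 amino acids both a cytosolic and a mitochondrial gene were measured. Both genes were called together 7 times, and a call of only 1 gene of a pair was more common. In liver both were called for 3 pairs, the cytosolic gene alone for 5, the mitochondrial alone for 3 and neither for 1. These counts were 2, 3, 2 and 5 in kidney, 1, 2, 1 and 8 in lung, and 1, 0, 1 and 10 in brown adipose. The pairs called together in liver were those for threonine, leucine and tryptophan. In kidney they were those for tyrosine and asparagine, in lung that for valine and in brown adipose that for cysteine. In 6 of the 7 the peaks lay at most 1.97 h apart, and closest for Tars and Tars2, 0.02 h apart. The exception was the tryptophan pair in liver, where Wars peaked at CT17.9 and Wars2 at CT4.1, 10.2 h apart. Of all called synthetase genes, 10 of 16 in liver and 9 of 11 in kidney peaked between CT18 and CT24. Whether pairs were called together, or peaked close together, more often than other genes of a tissue was not tested.

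By role, the 11 measured cytosolic genes known to respond to ATF4 had 6 calls in kidney (Eprs, Iars, Nars, Tars, Wars and Yars) and 7 in liver (Cars, Iars, Lars, Sars, Tars, Wars and Yars). That is 54.5% and 63.6%, where 25.8% and 26.8% of all genes were called. Of genes with a mean log2 of at least 6, 5280 of 13257 were called in kidney and 5461 of 13372 in liver. The median folds of the 11 were 1.10 and 1.14, against 1.08 and 1.09 over all genes. They had 3 calls in lung, 2 in brown adipose, 1 each in aorta and heart and 0 in the 6 other tissues, which makes 15.2% over all 12 tissues against 10.98% of all genes. Of the 5 other cytosolic genes, Qars was called in kidney and Vars in liver. Of the 7 enzymes of the multi-synthetase complex, Eprs, Iars and Qars were called in kidney and Iars and Lars in liver. These lists overlap, and they were chosen with results of these data known.

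Of 25 other genes of the amino acid response, 12 were called in liver (48% against 26.8% of all genes) and 9 in kidney (36% against 25.8%), at scattered times. In lung 8 were called (32% against 20.9%) and in brown adipose 7 (28% against 16.5%), and over all 12 tissues 21.3% against 10.98%. In liver Atf5, a related factor, had a fold of 1.88 (1.64 to 2.14) with its peak at CT0.07, and Atf4 itself 1.17 (1.07 to 1.27) at CT21.9. The transporter Slc38a2 had a fold of 1.65 at CT8.6, Trib3, an inhibitor of the response, 1.60 at CT5.6, and the factor Cebpb 1.45 at CT11.5. Of the 6 genes for the eIF2 kinases and the sensing of uncharged transfer RNA, Impact was called in liver, Eif2ak3 and Gcn1 in kidney, and Eif2ak1 and Eif2ak4 (Gcn2 itself) in lung. Over all 12 tissues 8.33% of the pairs of these genes and tissues were called, below the 10.98% of all genes.

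The mitochondrial machinery that works beside the synthetases had calls in 9 of 15 genes in liver, where 26.8% of all genes were called, and 5 of 15 in kidney, where 25.8% were, with 8 of the 9 liver peaks between CT20.6 and CT23.5. In liver Gatb had a fold of 1.32 (1.22 to 1.42) at CT22.7 and Gatc 1.30 (1.24 to 1.37) at CT20.6, both subunits of the amidotransferase. Trit1 and Mtfmt, which modify transfer RNA and formylate the initiator, had folds of 1.33 and 1.30. The median fold of the 15 in liver was 1.22, against 1.09 over all genes. In lung 1 of the 15 was called, where 20.9% of all genes were, and over all 12 tissues 9.44% against 10.98%.

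Partners of the synthetases were called for 7 of 12 genes in liver (26.8% of all genes) and 5 of 12 in kidney (25.8%). In lung limma called 0 of 12 (20.9% of all genes), with 2 at an unadjusted p under 0.05, and over all 12 tissues 13.2% against 10.98%. The phenylalanine enzyme subunits Farsa and Farsb were called in both liver and kidney, with folds of 1.20 and 1.19 in liver. Farsb was also called in adrenal gland (1.21-fold), aorta (1.27-fold), brown adipose (1.42-fold) and white adipose. In liver Dtd2, a proofreading enzyme, had a fold of 1.24, and Trmt112, a partner of methyltransferases, 1.24. Eef1e1, a scaffold of the synthetase complex, had a fold of 1.32 (1.25 to 1.40) in kidney with a peak at CT19.2. Of 6 cytosolic elongation factors, Eif5a (1.13-fold, CT19.3) and Eef2 (1.06-fold, CT13.4) were called in liver.

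Levels between tissues are given as a description, since the arrays of each tissue may have been normalized on their own. As deposited, liver had the highest mean of 15 of the 32 genes (8 cytosolic and 7 mitochondrial), and 28.1% of all genes were highest in liver. After quantile normalization over all arrays the number was 7. Under both scalings heart held the highest level of Cars2, Fars2, Mars2 and Tars2, and skeletal muscle that of Eprs, Iars and Kars. Aorta had the lowest level of 10 cytosolic genes as deposited. In 26 of the 32 genes the top tissue differed from the next by more than the larger of their standard deviations (SD).

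Tars spanned the widest range, 9.46-fold between liver and brainstem, and 6.50-fold after quantile normalization with liver still highest. On the log2 scale its mean was 10.19 ± 0.40 (SD, n = 24 arrays) in liver, 8.21 ± 0.15 in skeletal muscle, 7.71 ± 0.14 in kidney and 7.67 ± 0.11 in lung. It was 7.52 ± 0.18 in white adipose, 7.50 ± 0.10 in cerebellum, 7.36 ± 0.22 in adrenal gland and 7.31 ± 0.14 in brown adipose. In aorta it was 7.27 ± 0.11, in heart 7.23 ± 0.14, in hypothalamus 6.99 ± 0.11 and in brainstem 6.95 ± 0.13. These SD cover the time points of a tissue. Liver lay above skeletal muscle and skeletal muscle above kidney by more than the larger SD. From kidney down, heart and hypothalamus were the only neighbours in this order that did so. The 2 highest adrenal arrays, CT50 at 8.07 and CT30 at 7.90, were also the 2 with the highest hepatocyte marker levels, 12.37 and 12.04. The part of liver RNA in these values was not tested.

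**Figure D5:**
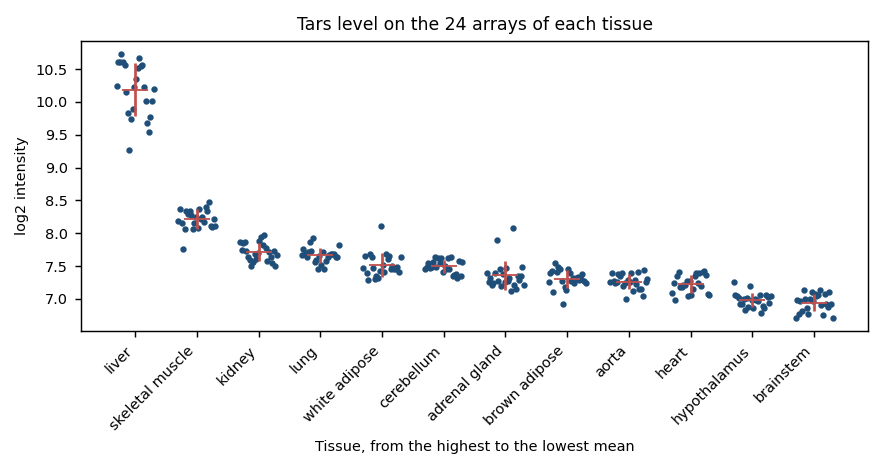
Log2 intensity of Tars (vertical axis) on the 24 arrays of each tissue (horizontal axis, ordered by mean); blue points run from CT18 to CT64 within a tissue, and red marks give the mean and SD. Liver lies apart at 10.19, and the 2 high adrenal arrays are those of CT50 and CT30.

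Yars had the next widest range, 4.14-fold, with its highest means in hypothalamus (9.94 ± 0.09), cerebellum (9.66 ± 0.06) and brainstem (9.45 ± 0.05) and its lowest in aorta (7.88 ± 0.13). Wars2 and Pars2 had the narrowest, 1.61-fold and 1.74-fold, against a median range of 3.08-fold over all genes. Wars2 was highest in kidney (7.99 ± 0.08) and lowest in white adipose (7.30 ± 0.11), and Pars2, the mitochondrial proline enzyme, was highest in brown adipose (6.59 ± 0.13) and lowest in skeletal muscle (5.79 ± 0.10).

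Wars in white adipose had the largest spread over arrays of any of the 32 genes in that tissue, 9.60 ± 0.63, and its wave was not called (adjusted p 0.90). It fell into separate clusters. The 8 arrays of CT28, CT38, CT40, CT50, CT52, CT54, CT58 and CT64 read between 9.99 and 10.81, and the 16 others between 8.85 and 9.48. Those 8 were also the 8 arrays with the highest mean of 12 epithelial genes, such as Krt8, Krt18 and Epcam, at 7.64 to 8.49 against 6.23 to 7.38. That list was chosen after the values were seen, and its part in the level of Wars was not tested. With the list in the fit, Cars2 remained the only synthetase gene called in white adipose, with a fold of 1.28 (1.16 to 1.41).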

How the data were processed

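Affymetrix arrays of RNA from 12 tissues gave 1 linear intensity per probe set and array, deposited by the authors after processing with Affymetrix Expression Console and GCRMA, per the submitters' processing notes, which give no version or order. Deposited intensities ran from 6.9 to 45307.8, with array medians from 95.2 to 106.6. The log2 of each was taken with no pseudocount. Of 35556 probe sets, 21789 carried 1 symbol, and the one with the highest mean represented each of 19938 genes; among the synthetases Iars alone had another probe set. The wave, a cosine and sine of 24 h, was fitted per tissue with limma 3.58.1 in R 4.3.3 (trend on mean expression), adjusted by Benjamini and Hochberg over all genes. Differences between tissues were tested by 22 interaction coefficients over 288 arrays. The scripts were checked on simulated data. Precision is set by how many arrays a tissue has.

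The 32 genes, the lists and the tests were chosen with earlier results of these data known. Values per array are given by rule for the 2 called genes with the largest fold in each tissue, the 6 genes called in most tissues, the 4 with the smallest p of difference, the 2 widest and 2 narrowest ranges of level, and up to 4 called genes of each pathway list. The 8 alternatives were ranks, a straight line in time, a pseudocount of 32, a filter at a mean log2 of 6, quantile normalization, the mean of probe sets, leaving out 18 arrays that stood apart, and the most variable list of other cell types' markers as a covariate. An array stood apart when it differed from its tissue's median in a marker mean by over 1 log2 unit, or in its median correlation by over 0.003 downward, and in either case by over 5 median absolute deviations (scaled). Promoter windows came from RefSeq and were searched with Python 3.11.15.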

Additional observations from a re-analysis of the deposited data

Results flagged for a closer look

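The size or time of the 24 h wave differed between tissues, by the limma interaction test over all 12 tissues, for 21 of the 32 synthetase genes. The adjusted p was 1.8e-17 for Tars, 7.9e-08 for Yars, 4.9e-07 for Cars2, 2.7e-06 for Gars, 7.0e-06 for Tars2, 9.0e-05 for Ears2, 0.00015 for Vars, 0.00024 for Sars, 0.00045 for Vars2 and 0.00056 for Mars1. It was 0.0015 for Nars2, 0.0017 for Iars, 0.0021 for Qars, 0.0064 for Rars2, 0.0090 for Nars, 0.012 for Cars, 0.013 for Sars2, 0.013 for Hars, 0.017 for Wars2, 0.019 for Pars2 and 0.039 for Eprs. In pairs of tissues, the wave of Tars differed between liver and kidney with 3.2e-08 and between liver and brown adipose with 2.9e-13. Those of Cars2 and Gars differed between liver and brown adipose with 0.00027 and 0.0025, and that of Yars between kidney and lung with 0.00027.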

How the results depend on the processing

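Of the 49 called waves, 30 held under all 8 alternatives: 14 of 16 in liver, 8 of 11 in kidney, 7 of 7 in lung and 1 of 1 in adrenal gland. The pseudocount, the filter and the mean of probe sets lost none of the 49 calls. No array stood apart in lung, brown adipose, cerebellum or brainstem, so leaving such arrays out repeated the main fit there. The lung calls therefore faced fewer changes than those of liver and kidney. No named wave reversed. The counts of liver (16 to 20), kidney (10 to 13) and lung (7 to 9) stayed within 1.5 times the main count. Elsewhere they did not, except in brainstem, whose count of 0 did not move. On ranks, 0 genes were called in aorta, cerebellum, heart, hypothalamus, skeletal muscle and white adipose, and 3 in brown adipose. The rank fit called 0 of all 19938 genes in brainstem, cerebellum, hypothalamus and skeletal muscle, 149 in aorta and 273 in white adipose, so its zeros there say little about these genes. With a straight line, brown adipose had 3, cerebellum 0, heart 3 and hypothalamus 1. With other cell types' markers, aorta had 1, brown adipose 1, heart 2, hypothalamus 0, skeletal muscle 0 and white adipose 2. Without genes of low mean, adrenal gland, cerebellum and heart had 2 each, and with quantile normalization adrenal gland had 3 and cerebellum 2. Without the arrays that stood apart, white adipose had 0. Waves that differed between liver and kidney numbered 5 without those arrays and 4 after quantile normalization over all arrays, and between kidney and lung 4 and 1. After that normalization liver was highest for 7 genes. The cause of these shifts was not tested. With the time point, which arrays of different tissues share, as a random block (correlation 0.023), the counts of differing waves were again 21 over all tissues, 10 for liver and kidney, 15 for liver and brown adipose and 2 for kidney and lung.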
